A study of Drosophila melanogaster with 13 samples.

Results

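The comparison described here set 4 RNA-seq libraries of *roX1* mutant *Drosophila melanogaster* larvae against 3 wildtype libraries, out of 13 libraries in the series. Its members were chosen by genotype label alone. Wildtype larvae (replicates 1, 3 and 4) carried the marker alleles y[1] and w[1118], and the *roX1* mutant (replicates 1, 2, 3 and 4) had the deletion roX1[ex6] in addition. Each library held polyadenylated RNA of 20 whole first instar larvae, which were male by the study's methods and not by the labels. The mothers were of the stated genotype and the fathers were FM7i balancer males marked with GFP, so every son had the maternal X chromosome, a Y chromosome from the FM7i stock and heterozygous autosomes. The strains were not isogenic, and a difference between the strains other than the *roX1* deletion cannot be told apart from the effect of the deletion. The labels do not say what a replicate number marks, and p-values measure only the spread between these libraries. The 6 libraries of *roX2* mutant larvae, with the allele roX2[9-4] and the markers y[1], cho[2] and v[1], and of *roX1 roX2* mutant larvae, with roX1[ex6] and roX2[9-4] beside y[1], w[1118] and, by the study's methods, v[1], entered the fits to estimate the spread and gave a pair of genotypes, in other libraries, that also differ in *roX1*. That pair differs in *w* and *cho* too. By the study's methods the X of the *roX1 roX2* mutant is a recombinant with the distal part of the *roX1* mutant X, so X-linked strain differences there are shared with the main comparison and cannot be told apart from *roX1*.

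In *Drosophila* males the single X chromosome is transcribed at an elevated rate. The MSL complex, 5 proteins with a non-coding *roX* RNA, binds active X genes, and its subunit MOF acetylates histone H4. *roX1* and *roX2* are both X-linked, differ greatly in length and sequence, and are largely redundant for male viability. Larvae of the first instar have just hatched, feed, and endoreplicate the DNA of most of their tissues.

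Between 45620194 and 82769481 read pairs per library were counted on genes in the 7 libraries. The libraries fell into 2 sets. On the first principal component of the autosomal genes (67.5% of the variance) wildtype replicate 1 stood at 44.2 and *roX1* mutant replicates 1 and 2 at 95.6 and 88.6. The other 4 libraries stood between -28.9 and -19.4. The sets are called the 1/2 set (2 *roX1* mutant libraries against 1 of wildtype) and the 3/4 set (2 against 2) below, and they share no library. Summed levels of 8 late embryo and moult markers were 2588 CPM (counts scaled to a common library total) in wildtype replicate 1 and 8705 to 10033 CPM in *roX1* mutant replicates 1 and 2, against 800.4 to 1750 CPM in the 3/4 set. Genotype was thus compared within each set as well as over all 7 libraries. Markers of muscle (22139 to 33040 CPM summed) and neurons (1089 to 1473 CPM) were present in every library, and 4 markers of adult male and testis tissue summed to at most 0.26 CPM.

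The *roX1* RNA itself (X:3857230-3862697 of BDGP6, minus strand) checked the labels. Wildtype replicates 1, 3 and 4 held 341, 349 and 299 TPM (counts divided by exon length and scaled to a common total). *roX1* mutant replicates 1 to 4 held 0.97, 0.23, 0.58 and 0.80 TPM, on average 0.196% of the wildtype level. *roX2* (X:11579065-11580432, plus strand) was at 22.3, 32.1 and 31.1 TPM in wildtype and at 35.8, 42.0, 34.3 and 43.8 TPM in the *roX1* mutant. Every mutant library thus held more *roX2* RNA than every wildtype library. The means were 39.0 ± 4.63 TPM (SD, n = 4) and 28.5 ± 5.41 TPM (SD, n = 3; exact two-sided permutation p = 0.0571, the smallest that 4 against 3 libraries allow). In the fit across all genes the log2 fold change of *roX2* was 0.56 ± 0.34 (SE, adjusted p = 0.44 by the quasi-likelihood test of edgeR). That fit takes its spread from all 13 libraries, of which 6 carry the *roX2* deletion. With the 7 libraries alone and the library set as a block the log2 fold change was 0.60 ± 0.14 (SE, edgeR adjusted p = 0.045). It was 0.85 in the 1/2 set (adjusted p = 0.0038) and 0.43 in the 3/4 set (adjusted p = 0.032). Both *roX* RNAs together amounted to 39.6 TPM in the mutant and 358 TPM in wildtype, 11.1% of the wildtype sum.

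The genes of the MSL proteins did not pass the test. *msl-2*, the male-specific subunit that limits assembly, stood at 39.2 to 43.1 CPM in wildtype and 41.5 to 45.9 CPM in the *roX1* mutant (log2 fold change 0.11 ± 0.11 SE). The scaffold gene *msl-1* differed by -0.00033 ± 0.15, the chromodomain gene *msl-3* by -0.13 ± 0.099, the RNA helicase gene *mle* by -0.058 ± 0.13 and the acetyltransferase gene *mof* by 0.049 ± 0.12. None of the 12 genes of the NSL complex and of MSL recruitment passed the test (median -0.11), whether or not the library set was modelled as a block.

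**Figure D1:**
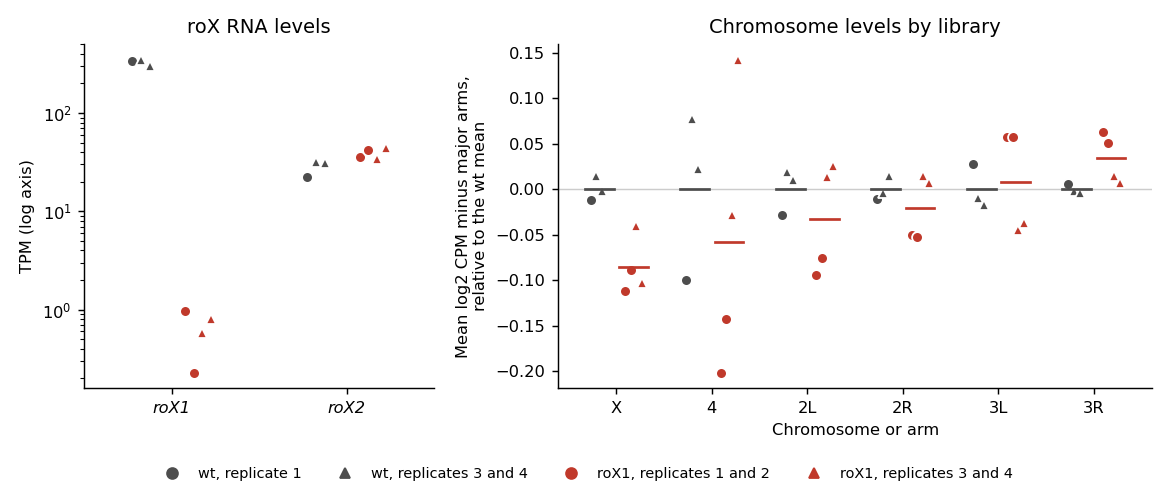
Left, *roX1* and *roX2* RNA in TPM on a log axis, one point per library. Right, mean log2 CPM of the genes of each chromosome or arm minus that of arms 2L, 2R, 3L and 3R, relative to the wildtype mean (lines are group means). All 4 *roX1* mutant libraries lie below all 3 wildtype libraries for X, between -0.11 and -0.040, whereas the fourth chromosome spreads from -0.20 to 0.14 in the mutant.

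The next comparison asked how the X chromosome as a whole stood without *roX1*. The mean level of 2136 X genes, relative to that of the 11494 genes on the major autosome arms, was -0.11, -0.089, -0.040 and -0.10 on the log2 scale in *roX1* mutant replicates 1 to 4. Wildtype replicates 1, 3 and 4 stood at -0.012, 0.014 and -0.0019. The groups did not overlap, and the difference was -0.086 (exact two-sided permutation p = 0.0571, the smallest possible). It was of like size in both library sets, -0.088 in the 1/2 set and -0.078 in the 3/4 set. Arm 3R also separated the groups, in the other direction and by less (0.034, exact permutation p = 0.0571). Arms 2L, 2R and 3L and the fourth chromosome overlapped. Their differences were -0.033, -0.020, 0.0084 and -0.058. In the gene-wise fit the mean log2 fold change of X genes relative to that of the major arms was -0.12, and -0.15 without wildtype replicate 1. Among genes of at least 5 CPM it was -0.066.

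The shift was broad and shallow. Of the 1373 protein-coding X genes of at least 5 CPM, 45.7% lay under the major-arm mean in both library sets and 13.8% lay over it in both. On the major arms 35.4% lay under and 17.6% over. In 9.69% of these X genes all 4 *roX1* mutant libraries were under all 3 wildtype libraries, and in 6.70% they were all over. On the major arms the order was the opposite, with 7.26% under and 9.87% over. These shares describe genes, which are not independent replicates.

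Gene by gene, 105 of 13969 genes were higher and 80 lower in the *roX1* mutant at an adjusted p under 0.05 (0.752% and 0.573% of the genes tested). On X, 13 genes were higher (0.609%) and 23 lower (1.08%). On the major arms 90 were higher (0.783%) and 52 lower (0.452%). All 185 called genes changed in the same direction in both library sets, and in 184 of them the libraries of the genotypes did not overlap, against 16.2% of all genes (8.56% higher and 7.62% lower). The calls were made from these same libraries, so this agreement follows largely from the selection and is no separate evidence. With the library set as a block in a fit of the 7 libraries alone, 539 genes were higher and 473 lower (4.18% and 3.67% of 12903), of which 68 and 92 were on X (3.38% and 4.58% of its genes), and 179 of the 185 were among them. DESeq2 called 599 and 379 (4.29% and 2.71%). The count moved with the library left out. It was 21 higher and 43 lower without wildtype replicate 3, 25 and 36 without wildtype replicate 4, 62 and 45, 59 and 54, and 48 and 42 without *roX1* mutant replicates 1, 2 and 3, and 105 and 52 without replicate 4. It was 141 and 110 without wildtype replicate 1. With both genotypes reduced to replicates 3 and 4, a choice made after seeing the data, it was 312 and 137 (2.28% and 0.999%).

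Within the 1/2 set 2661 genes were called (19.0%, with 10.2% higher and 8.90% lower) and within the 3/4 set 3149 (22.5%, with 14.2% higher and 8.35% lower). The genes called in the same direction in both numbered 748, or 28.1% of the former and 23.8% of the latter, and 235 were called in opposite directions. The fold change itself differed between the sets in 2693 genes (19.3%, interaction term in edgeR). Over all genes the log2 fold changes of the sets correlated with r = 0.24, a description across genes that share libraries within each set. In the 1/2 set a single wildtype library was assumed to vary like the other groups.

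**Figure D2:**
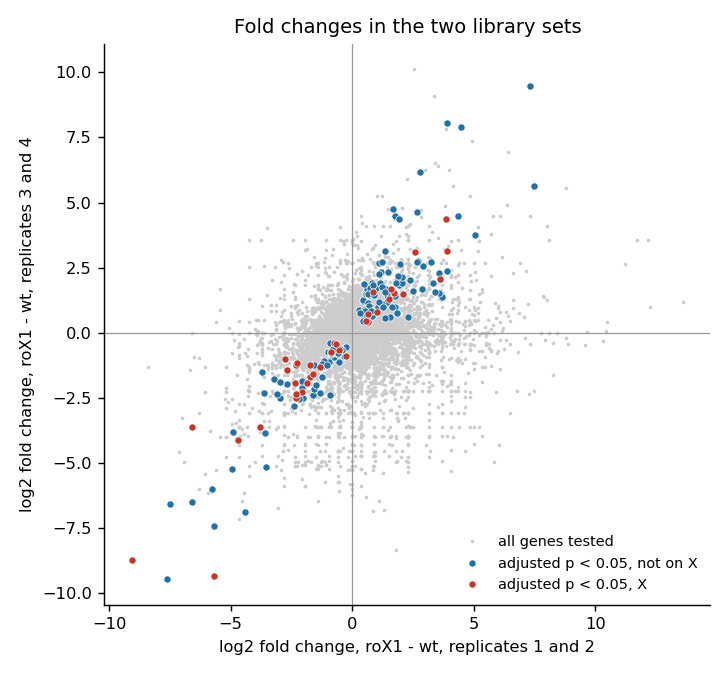
Log2 fold change of *roX1* mutant over wildtype in the 1/2 set (horizontal) and in the 3/4 set (vertical), one point per gene, with the 185 called genes coloured by chromosome. The called genes, selected from these same libraries, all lie in the lower left and upper right quadrants. The grey cloud of 13969 genes has r = 0.24.

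Among X genes, the largest rise was that of *Cyp4d1* (X:2159145-2162180), a cytochrome P450 gene. It stood at 1.94, 1.69 and 1.56 CPM in wildtype replicates 1, 3 and 4 and at 30.0, 26.4, 36.5 and 30.0 CPM in *roX1* mutant replicates 1 to 4, a log2 fold change of 4.15 ± 0.21 (SE, adjusted p = 4.8e-06). The mutant libraries were thus far above wildtype in both sets (3.86 and 4.35). In the *roX2* mutant, which was set against the same wildtype libraries, *Cyp4d1* was also higher, by 3.47, and *roX1 roX2* and *roX2* mutants differed by -0.46 (adjusted p = 0.17). *CG8664* rose from 7.60 to 17.5 CPM in wildtype to 64.3 to 105 CPM in the mutant (2.95 ± 0.43). The pseudogene *swaPsi* (2.41), the mucin gene *Muc12Ea* (1.61) and *CG10962* (1.49) rose by less. With the replicate number as a block *Muc12Ea* missed the threshold (adjusted p = 0.080). *swaPsi* again had a like value of 3.33 in the *roX2* mutant. *CG8664*, *Muc12Ea* and *CG10962* overlap genes on the opposite strand, and the library kit did not mark strand.

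By the same rule the largest X fall after *roX1* was that of *Gr8a*, a gustatory receptor for the plant toxin L-canavanine (X:9227137-9228827). It had 255 read pairs in the 3 wildtype libraries and 2 in the 4 mutant libraries, a ratio of 137 with a 95% exact interval of 37.6 to 1140 that covers counting error only. The lncRNA *CR40469* stood at 6.66, 5.45 and 7.37 CPM in wildtype and 0.35, 0.60, 0.45 and 0.59 CPM in the mutant (-3.71 ± 0.39, adjusted p = 7.8e-04). *CG32750* stood at 114, 11.2 and 17.0 CPM in wildtype replicates 1, 3 and 4 and at 5.29, 3.34, 0.57 and 1.04 CPM in the mutant. Its level thus followed the library set as well as the genotype (-4.72 and -4.13 within the sets). *CG2961* (-4.91), the forkhead gene *Crg-1* (-2.49), the sperm dynein gene *Sdic2* (-2.33) and *CG33253* (-2.08) completed the 8 largest falls on X, and *CG2961* missed the threshold with the replicate number as a block (adjusted p = 0.075). *Sdic2* is a member of a tandem array of near-identical copies and its counts are uncertain. *Crg-1* was lower by 2.58 in the *roX2* mutant than in the same wildtype libraries, and *Sdic2* had a fold change of -1.45 there, which was not called.

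Away from X, the 8 largest rises by that rule were of *CG4650*, *Zip42C.2*, *CG15905*, *CG9698*, *GstD6*, *lectin-24A*, *nw* and *Alp2*. Over all genes off X the highest log2 fold change was 12.7, in a gene outside the rule. The protease-like gene *CG4650* had 1 read pair in wildtype and 415 in the mutant (ratio 385, 95% exact interval 68.8 to 15258). The alkaline phosphatase gene *Alp2* rose from 1.16, 0.29 and 0.43 CPM to 7.81, 7.10, 9.29 and 8.71 CPM (3.70 ± 0.57). The zinc transporter gene *Zip42C.2* stood at 0.017 to 0.043 CPM in wildtype, at 0.49 and 0.30 CPM in mutant replicates 1 and 2 and at 8.89 and 8.73 CPM in replicates 3 and 4. *nw*, a C-type lectin gene, had the reverse pattern, with 138 and 150 CPM in mutant replicates 1 and 2, 37.8 and 13.1 CPM in replicates 3 and 4, and 4.80 to 9.64 CPM in wildtype. These 8 genes were chosen for having the genotypes apart and the same direction in both sets, so that much holds by the choice. The size of the rise differed between the sets for *Alp2*, *GstD6* and *lectin-24A* by the interaction test.

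The 8 largest falls away from X by that rule were of *lncRNA:CR44660*, *lncRNA:CR45284*, *Su(Ste):CR42407*, *Gr68a*, *BomS4*, *lncRNA:CR32368*, *CG31821* and *CG11893*. *lncRNA:CR44660* lies on arm 2R inside *dpr1*, a gene of an immunoglobulin-domain cell surface protein, on the same strand. It stood at 5.15, 10.5 and 8.05 CPM in wildtype and at 0.047, 0, 0 and 0.023 CPM in the mutant (-8.60 ± 0.87). *dpr1*, chosen after its values were seen, stood at 88.3, 152 and 135 CPM in wildtype and at 26.4, 30.5, 26.9 and 28.2 CPM in the mutant (-2.16 ± 0.16). Both also fell in the *roX2* mutant, where the fold changes against the same wildtype libraries were -9.93 and -2.11, and neither differed between *roX1 roX2* and *roX2* mutants at an adjusted p of 0.05 (0.97 and 0.22). *lncRNA:CR45284* had a fold change of -6.02 in the *roX1* mutant and of -6.94 in the *roX2* mutant. *CG11893* stood at 8.03 to 13.1 CPM in wildtype and 1.14 to 2.17 CPM in the *roX1* mutant.

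Several genes of the Y chromosome, which came from the same stock in both genotypes, had lower counts in the *roX1* mutant. Of 113 annotated Y genes 21 were tested, 4 were called lower, against 0.573% of all genes, and none higher. The 4 calls became 2 with the replicate number as a block and 2 or 3 with any 1 library left out. Of the 21 genes 15 were below 0 in both library sets, as were 3575 of all 13969 genes. *FDY*, a Y-linked copy of the autosomal gene *vig2*, stood at 5.87, 3.57 and 4.52 CPM in wildtype and 0.63, 0.75, 0.72 and 0.84 CPM in the mutant (-2.66 ± 0.21, adjusted p = 8.5e-05). Against the same wildtype libraries its fold change was -1.12 in the *roX2* mutant, which was not called, and -1.80 in the *roX1 roX2* mutant. *Su(Ste):CR42407*, a repeat from which RNAs against the *Stellate* genes arise, fell from 1.47 to 1.96 CPM to at most 0.12 CPM. The counts of both are uncertain because near-identical copies exist elsewhere in the genome.

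**Figure D3:**
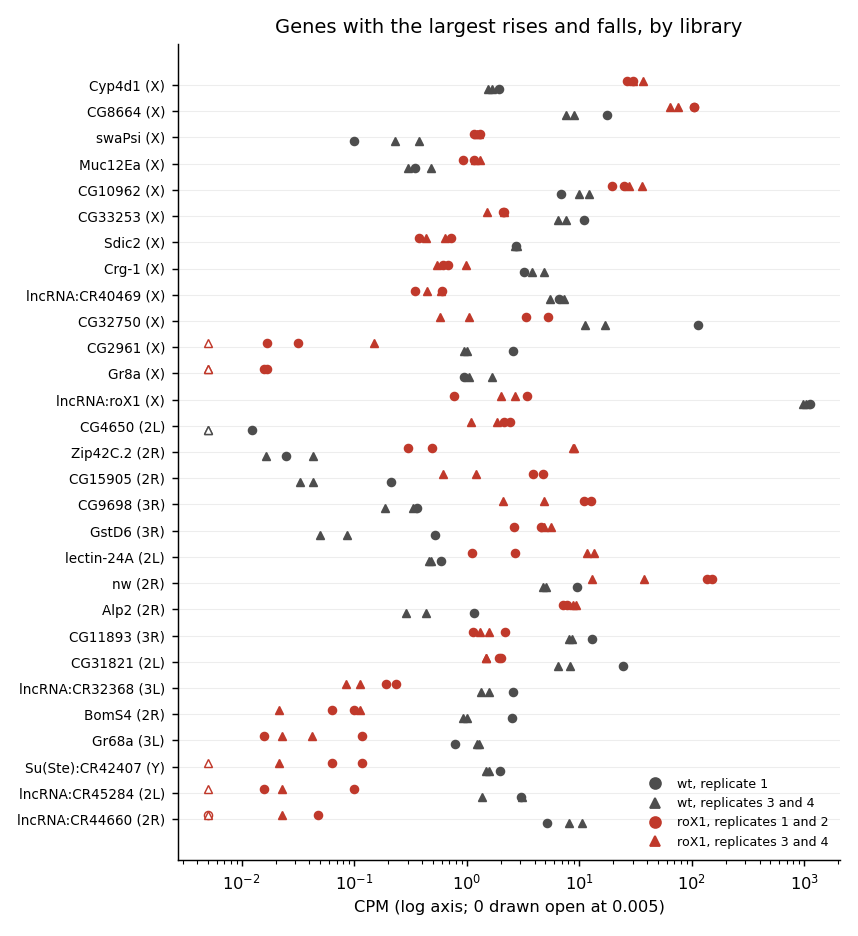
CPM by library, on a log axis, of genes on X (upper rows) and on other chromosomes (lower rows). They had the largest rises and falls among called genes that met the rule for counts and separation. Open symbols are libraries with no read pair. By the rule that chose these genes, the 4 *roX1* mutant libraries lie on one side of the 3 wildtype libraries in every row. For *Cyp4d1* they lie at 26.4 to 36.5 CPM against 1.56 to 1.94 CPM.

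Functional classes were then compared. The lists and their members were drawn up with results of these data known. Several DNA replication genes rose in the *roX1* mutant. The list of replication licensing and replication fork genes also took in the cell cycle genes *CycE*, *CycA*, *CycB* and *stg*. Of its 26 tested genes (27 annotated), 4 rose and none fell, against 0.752% and 0.573% of all genes. With the library set as a block 9 rose, against 4.18% of all genes. The median log2 fold change was 0.65, against 0.017 over all genes, and 22 of the 26 were higher in both sets, as were 3764 of all 13969 genes. The median was 0.87 in the 3/4 set and 0.24 in the 1/2 set. *PCNA*, the sliding clamp, stood at 16.7, 13.9 and 16.7 CPM in wildtype and 24.9, 27.5, 47.5 and 39.1 CPM in the mutant (1.14 ± 0.24, adjusted p = 0.047). *RnrS*, a subunit of ribonucleotide reductase, rose by 1.29 ± 0.26 and *Ctf4*, which couples helicase to polymerase, by 1.24 ± 0.24. *CycE*, the S phase cyclin and a gene chosen after its values were seen, rose by 0.65. For *PCNA*, *RnrS* and *Ctf4* the rise was larger in the 3/4 set by the interaction test. With the replicate number as a block over 13 libraries they missed the threshold (adjusted p = 0.101, 0.0695 and 0.0675).

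Detoxification genes moved in both directions. Of 87 tested cytochrome P450 genes (91 annotated) 6 rose and 3 fell, against 0.752% and 0.573% of all genes, and 15 rose and 7 fell with the library set as a block, against 4.18% and 3.67%. In the 3/4 set 30 rose and 10 fell, against 14.2% and 8.35% of all genes. The median of the P450 genes was 0.18 there and 0.060 in the 1/2 set. *Cyp4p2* rose from 25.8, 34.7 and 32.4 CPM to 108, 107, 120 and 133 CPM (1.92 ± 0.14, adjusted p = 4.9e-05). It was also higher in the *roX2* mutant than in the same wildtype libraries, by 0.86 (edgeR adjusted p = 0.027). *Cyp4e1* rose by 1.59 ± 0.32 (adjusted p = 0.054 with the replicate number as a block), and *Cyp6a9*, chosen after its values were seen, fell from 58.2 to 70.2 CPM to 32.9 to 41.1 CPM (-0.76). Of 13 X-linked P450 genes 3 were called with the block, *Cyp4d1*, *Cyp4g1* and *Cyp4s3*, all of them higher, where 3.38% of X genes rose. Of 36 glutathione transferase genes 3 rose and none fell, against 0.752% and 0.573% of all genes. With the block 6 rose and 1 fell, against 4.18% and 3.67%. *GstD6* rose by 4.28, *GstE6* by 1.30 and *GstD10* by 0.94 (adjusted p = 0.066 with the replicate number as a block). The median of the family was 0.95 in the 3/4 set, where 26 members were called higher against 14.2% of all genes, and -0.14 in the 1/2 set. UDP-glycosyltransferases, another family of this kind, had 0 calls of 33. With the block 3 were higher and 3 lower, against 4.18% and 3.67% of all genes. In the 3/4 set 13 rose and 3 fell, against 14.2% and 8.35%. Their median was 0.22 there and -0.84 in the 1/2 set.

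Cuticle and chitin genes differed mostly between the library sets. The *Osiris* and *Tweedle* families, which are expressed when cuticle is laid down, had median log2 fold changes of 2.22 and 3.87 in the 1/2 set and of -0.23 and -0.017 in the 3/4 set. Summed *Osiris* levels were 1549.5 CPM in wildtype replicate 1 and 7938 to 7989 CPM in mutant replicates 1 and 2, against 21.7 to 26.4 CPM in the 3/4 set. No member of either family was called over all 7 libraries. With the block, which assumes 1 fold change for both sets, 4 of 20 *Osiris* and 4 of 26 *Tweedle* genes rose, against 4.18% of all genes. The summed late embryo and moult markers given above are almost all genes of these families and are no separate evidence. The remaining one, *ftz-f1*, stood at 238 and 155 CPM in mutant replicates 1 and 2 and at 30.9 to 46.6 CPM in the other 5 libraries, and the part of larval age was not tested. Within the broader cuticle family 1 of 91 genes rose and 1 fell (97 annotated), against 0.752% and 0.573% of all genes. With the block 8 rose and 3 fell, against 4.18% and 3.67%. *Lcp65Ag1*, one of several similar larval cuticle genes, differed in both sets, with 118 to 145 CPM in wildtype and 492 to 725 CPM in the mutant (2.18 ± 0.45). *Cpr65Ay* fell by 0.74 (adjusted p = 0.057 with the replicate number as a block). Of 51 chitin genes 2 rose, *Muc12Ea* and the moulting chitinase gene *Cht10*, against 0.752% of all genes. *Cht10* stood at 65.6, 61.6 and 54.8 CPM in wildtype and 376, 366, 198 and 158 CPM in the mutant (2.18 ± 0.31).

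Digestive proteases had lower medians in the mutant in both sets (-1.67 and -0.24). None of 32 trypsin-like and Jonah protease genes passed the test over all libraries (34 annotated), but with the library set as a block 6 fell and 1 rose, against 3.67% and 4.18% of all genes. In the 3/4 set 8 fell and 3 rose, against 8.35% and 14.2% of all genes. *Jon99Fii* stood at 1207, 224 and 363 CPM in wildtype and 147, 116, 64.8 and 118 CPM in the mutant (-2.42, adjusted p = 0.070, and 0.018 with the block). *Jon44E* alone of the family rose with the block. Wildtype replicate 1 held 21318 CPM of these proteases in sum, against 4081 to 4792 CPM in wildtype replicates 3 and 4 and 3427 to 6712 CPM in the mutant. *Vha100-4*, a midgut marker outside the protease family, was also highest there, at 93.9 CPM against 18.7 to 47.1 CPM in the others. *Mal-A1*, another such marker, was at 16.3 CPM there and at 2.22 to 13.5 CPM in the others. *Amy-p*, also such a marker, stood at 6.27, 0.77 and 0.63 CPM in wildtype replicates 1, 3 and 4 and at 4.14 to 8.40 CPM in the mutant. The part of gut content in the result was not tested. Fewer gut cells and less RNA per gut cell cannot be told apart in whole larvae. Among 14 maltase and amylase genes *tobi*, an alpha-glucosidase gene under insulin-related control, rose by 1.42 ± 0.23, from at most 2.12 CPM to 3.71 to 5.86 CPM. The medians of this list had opposite signs, -1.85 in the 1/2 set and 0.64 in the 3/4 set.

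Few chemosensory receptor genes were called. Of 187 ionotropic, gustatory and odorant receptor genes 135 were tested, most of them at low counts. Over all libraries 1 rose and 4 fell, against 0.752% and 0.573% of all genes. With the block 1 rose and 5 fell, against 4.18% and 3.67%. The list's median was 0.17 in the 1/2 set and -0.44 in the 3/4 set. Beside *Gr8a*, the gustatory receptor gene *Gr68a* fell from 0.78 to 1.28 CPM to at most 0.12 CPM (-4.38). Its fold change in the *roX2* mutant against the same wildtype libraries was -3.17, which was not called. *Ir76a*, an olfactory receptor gene for amines, stood at 6.51, 5.26 and 5.02 CPM in wildtype and 0.96, 1.52, 0.64 and 0.81 CPM in the mutant (-2.50 ± 0.49). *Ir51a* fell by 2.00 and *Gr98a* rose by 1.98 (adjusted p = 0.050 with the block), both chosen after their values were seen. Of 36 odorant-binding protein genes (52 annotated) *Obp56a* alone was called. It stood at 91.4, 77.1 and 91.6 CPM in wildtype and 590, 605, 632 and 490 CPM in the mutant, a rise of 2.71 in the 1/2 set and 2.73 in the 3/4 set. *Gr68a*, *Gr8a* and *Ir76a* overlap genes on the opposite strand.

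Immune genes changed singly. *BomS4*, a short secreted peptide of the Toll response, fell from 2.51, 1.00 and 0.93 CPM to between 0.021 and 0.11 CPM (-4.28 ± 0.64), the only call among 29 antimicrobial and immune-induced peptides. In the *roX2* mutant its fold change against the same wildtype libraries was -4.13. The median log2 fold change of the 29 peptide genes was 0.57 in the *roX1* mutant, against 0.017 over all genes. It was 0 in the 1/2 set and 0.57 in the 3/4 set. Of 36 genes named as lectins or serpins, a list without *nw*, *lectin-24A* rose by 3.82 (adjusted p = 0.066 with the replicate number as a block) and *Spn31A* fell by 0.63. *PGRP-SC2*, an amidase that degrades peptidoglycan and a gene chosen after its values were seen, stood at 94.1, 20.6 and 19.5 CPM in wildtype and 6.88 to 7.36 CPM in the mutant (-2.65 ± 0.56, adjusted p = 0.073 with the replicate number as a block). Its fall was larger in the 1/2 set, where wildtype replicate 1 had the highest level.

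In ecdysone synthesis *sad*, which encodes a P450 enzyme of the last steps, rose from 1.04 to 1.67 CPM to 2.01 to 3.97 CPM (1.22 ± 0.26), the only call among 13 genes. With the block *spok* and *dib* rose as well and *shd*, which activates ecdysone in peripheral tissues, fell (-0.56 over all libraries). None of 21 ecdysone response genes passed the test, although 11 were higher in the 1/2 set. In fat body lipid transport, *apolpp*, the lipophorin precursor gene on the fourth chromosome, stood at 1557, 1609.5 and 1818 CPM in wildtype and 2292, 2335, 3732 and 3873 CPM in the mutant (0.88, adjusted p = 0.23, and 0.014 with the block). *Mtp*, which loads its lipid, differed by 1.02 (adjusted p = 0.070, and 0.015 with the block). Of the other fat body markers, *Adgf-A* stood at 29.3 to 52.0 CPM in wildtype and 25.1 to 36.6 CPM in the mutant, and *Fbp1*, *Lsp1beta* and *Lsp2* were under 1 CPM in every library. Of 23 insulin, TOR and growth delay genes none passed the test.

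Several classes concerned with protein synthesis and folding were higher in the 3/4 set, in which 14.2% of all genes were called higher. Proteasome subunits had a median of 0.65 in that set, with 30 of 32 genes called higher, and of -0.031 in the 1/2 set. Aminoacyl-tRNA synthetases had medians of 0.57 and 0.015 (26 of 32 called higher in the 3/4 set). Over all libraries *GluProRS* rose by 0.69 ± 0.14 and *AlaRS* by 0.62 ± 0.13 (adjusted p = 0.055 with the replicate number as a block). Heat shock proteins and chaperones had medians of 0.70 and -0.14, with 24 of 37 called higher in the 3/4 set. *Hsp23*, *Hsp26* and the endoplasmic reticulum chaperone gene *Hsc70-3* rose with the library set as a block, 3 of 37 against 4.18% of all genes. Cytoplasmic ribosomal proteins had medians of 0.0097 in the 3/4 set and 0.022 in the 1/2 set, and 0 of 85 were called over all libraries (1 with the block). Over all libraries none was called among 70 mitochondrial ribosomal, 83 nuclear respiratory chain, 20 voltage-gated ion channel, 8 Hox and 24 Notch pathway genes. The medians of the mitochondrial ribosomal genes nevertheless had opposite signs, 0.24 in the 3/4 set and -0.22 in the 1/2 set. Those of the nuclear respiratory chain genes were 0.12 and -0.23.

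In sex determination no gene passed the test over all libraries, and with the block *Sxl*, *run* and *da* fell. *Sxl*, the X-linked switch gene that blocks dosage compensation in females, stood at 215, 222 and 197 CPM in wildtype and 163, 173, 146 and 161 CPM in the mutant (-0.39, adjusted p = 0.11, and 0.044 with the block). The groups did not overlap.

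**Figure D4:**
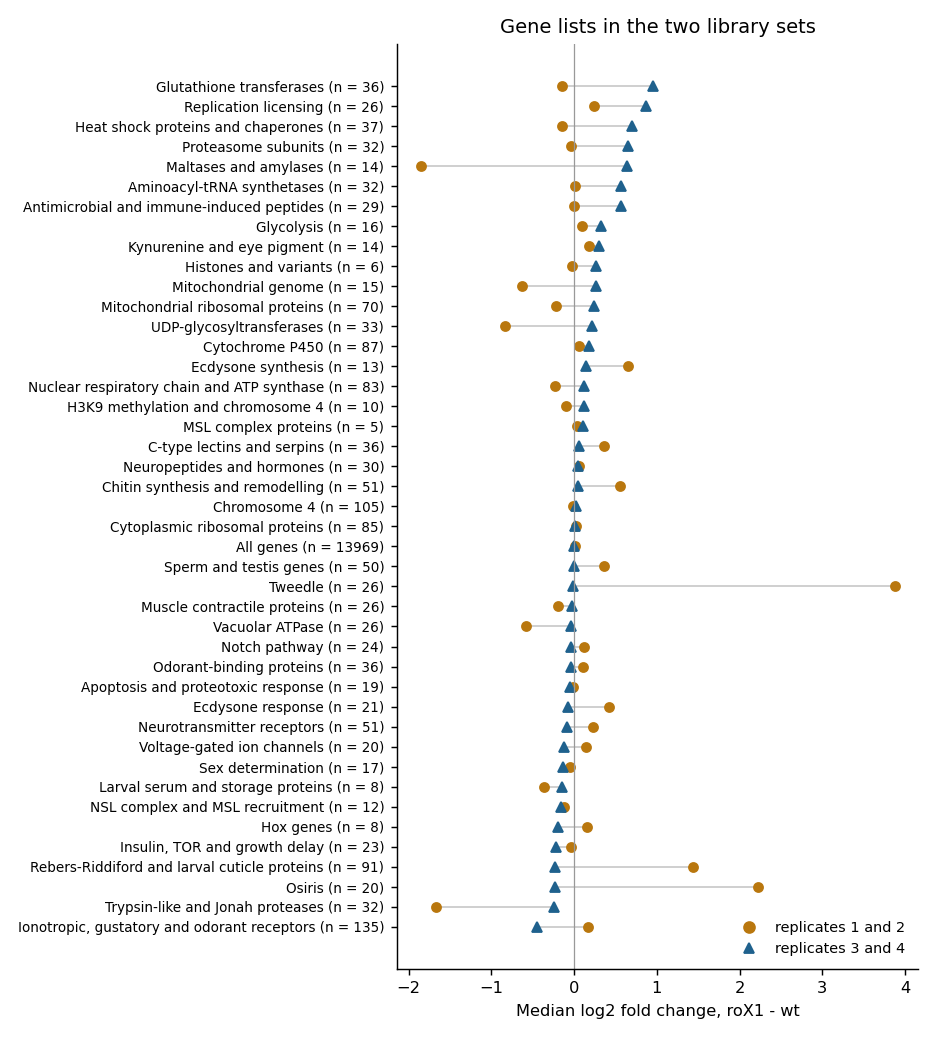
Median log2 fold change of *roX1* mutant over wildtype of each gene list in the 1/2 set (circles) and the 3/4 set (triangles), with the number of genes tested. Replication licensing is above 0 in both sets (0.24 and 0.87), whereas *Tweedle* (3.87 and -0.017), *Osiris* (2.22 and -0.23) and maltases (-1.85 and 0.64) differ in sign.

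The *roX1 roX2* and *roX2* mutants differ in *roX1* as well, and share no library with the comparison above. Their difference was read for the called genes as a description. Of 22 X genes lower in the *roX1* mutant, *roX1* itself left out, 20 were lower in the *roX1 roX2* mutant than in the *roX2* mutant and 11 were called lower. Among all X genes 86.5% were lower in that comparison and 28.0% were called lower, so the direction alone separates these genes little from the others. Their median was -1.04, against -0.57 for all X genes. *lncRNA:CR40469* fell by 4.66 there (adjusted p = 4.9e-04), *Gr8a* by 2.27 (adjusted p = 0.046, and 0.075 without *roX2* mutant replicate 4) and *CG33253* by 1.92. Of the 13 X genes higher in the *roX1* mutant, 3 were higher in the *roX1 roX2* mutant, of which 1 was called (0.609% of X genes were called higher), and 5 were called lower. Among them *CG10962* was lower by 1.72.

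Away from X the signs were mixed. Of 92 genes higher in the *roX1* mutant 43 had the same sign, 5 were called in the same and 11 in the opposite direction, and of all genes off X 52.2% were higher, with 2.53% called higher and 1.34% called lower. *Obp56a* was lower by 2.52 (adjusted p = 0.0010) and *GstD10* by 1.48 (adjusted p = 0.0029). *Cyp4p2* was higher by 0.67 (adjusted p = 0.018, and 0.063 without *roX2* mutant replicate 4). *PCNA*, *RnrS* and *Ctf4* differed by -0.66, -0.57 and 0.031 and were not called. Of 57 genes lower in the *roX1* mutant 35 had the same sign, 5 were called in the same and 2 in the opposite direction. *roX2* mutant replicate 4 stood at 37.7 on the first component, apart from the other 5 libraries of these genotypes, and without it the same signs numbered 45 of 92 and 34 of 57. Of the 92 genes 2 were then called in the same and 7 in the opposite direction, of the 57 genes 3 and 1, and the X genes called lower fell from 599 to 272.

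**Figure D5:**
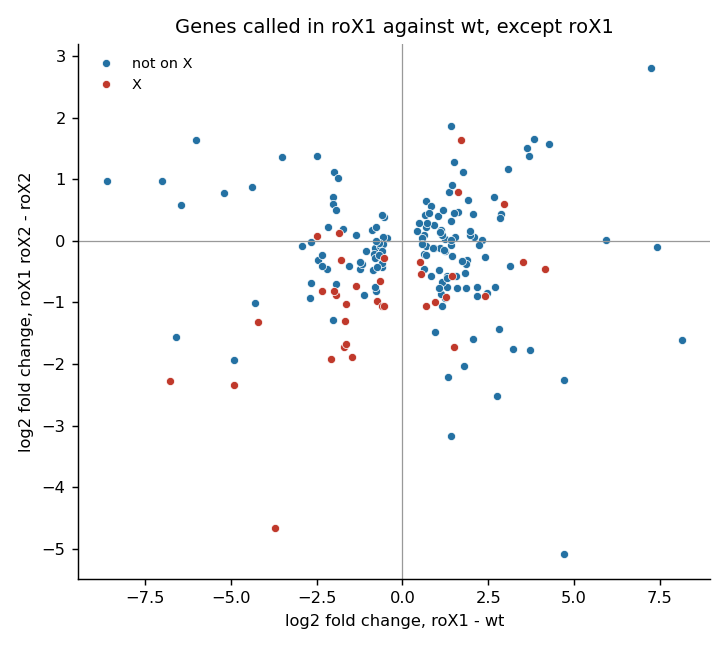
Log2 fold change of the 184 called genes other than *roX1* in *roX1* mutant over wildtype (horizontal) and in *roX1 roX2* over *roX2* mutant (vertical). Of the X genes that were lower in the *roX1* mutant, 20 of 22 lie below 0 on the vertical axis, while genes off X that were higher lie on both sides (43 of 92 above 0).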

How the data were processed

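The deposited values were raw counts of read pairs per gene, made by the authors with STAR 2.5.1b on genome release 6.09 and HTSeq 0.6.1 at default settings, from 125 bp paired reads. Those defaults count by strand, the kit does not mark strand, and only 1.07% to 1.81% of pairs fell on no feature, so the strand setting used is unclear. Rows that name no gene held 13.9% to 23.8% of the pairs in these 7 libraries, mostly multiply aligned, and stayed out. Names and positions came from Ensembl BDGP6.54. Genes with at least 20 counts over 13 libraries were tested with edgeR 4.0.16 in R 4.3.3 (TMM, 4 groups, quasi-likelihood, Benjamini-Hochberg adjusted p under 0.05), and *w*, *CG3588* and *CG14416* to *CG14419* were left out. The authors excluded them for strain differences. CPM are TMM scaled, and marker sums use raw library totals. Library sets were fitted as 4 groups of 7 libraries. Same-numbered libraries of the genotypes deviated together (r = 0.72, 0.61 and 0.73), and so did unlike numbers within a set (0.72, 0.66 and 0.68). These values follow the sets and do not show that the numbers pair libraries, so the replicate number as a block was only an alternative. Named genes were the *roX* and MSL genes, the largest rises and falls (8 and 8 off X, 5 and 8 on X, mean of at least 50 counts, groups apart, both sets alike) and up to 3 called genes per list. Members and the 43 lists were chosen with earlier results of these data known. The list of gut lipases was dropped because its pattern mixed unrelated genes. DESeq2 1.42.0 was an alternative. Tests were tried on simulated counts. There edgeR recovered 17% of genes with a log2 change of 1 and 76% of those with 2, with 3 false among 96 calls. DESeq2 recovered 48% and 87%, with 25 false among 160 calls. The simulated libraries did not fall into sets as the real ones did, so these shares of false calls need not hold for the real counts. The interaction test recovered 1% of genes whose log2 fold changes differed by 2 between the sets and 56% of those differing by 4. The simulated spread came from a fit by genotype alone, which counts the difference between the sets as spread. The interaction fit does not, so these 2 shares do not give its power in the real data.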

Additional observations from a re-analysis of the deposited data

Results flagged for a closer look

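The fold change of *roX1* mutant over wildtype differed between the 1/2 and the 3/4 library sets in 2693 of 13969 genes (interaction term in edgeR, adjusted p under 0.05). Among the genes named above it was smaller in the 1/2 set, as a difference of log2 fold changes, for *AlaRS* (-0.61), *CaBP1* (-0.80), *Claspin* (-0.91), *PCNA* (-0.86), *GstE6* (-0.96), *Ctf4* (-1.07), *RnrS* (-1.38), *Alp2* (-1.97), *lectin-24A* (-3.06) and *GstD6* (-3.41), all of which rose. It was larger in the 1/2 set for *Cht10* (0.89), *wbl* (0.81) and *PH4alphaSG1* (0.92), which also rose. Of genes that fell, *CG31821* (-1.29) and *PGRP-SC2* (-2.20) fell further in the 1/2 set and *dpr1* (0.75) fell further in the 3/4 set.

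*CG33253* had 1 *roX1* mutant library apart from the others. Replicate 4 stood at 1.52 CPM and the others at 2.10 to 2.16 CPM, a gap of 0.915 of the range. Of 65 groups of 4 libraries looked at, this was the only one, and chance gives about 1 in 20.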

How the results depend on the processing

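The counts of genes called moved with the fit. DESeq2 called 599 genes higher and 379 lower (78 and 76 on X), the 7 libraries alone with no replicate block 50 and 37 (8 and 9 on X), and the same libraries with replicates 1/2 against 3/4 as a replicate block 539 and 473 (68 and 92 on X). Replicates 3/4 only, an alternative chosen after seeing the data, gave 312 and 137, with 25 X genes higher. The fit with the replicate number as a block over 13 libraries gave 120 and 89. Leaving out 1 library gave 21 to 141 genes higher and 36 to 110 lower, and 4 to 18 X genes higher and 10 to 23 lower. The X shift stayed negative in every alternative. It was -0.071 with medians, -0.086 with means of log2 CPM per library, -0.066 with genes of at least 5 CPM, and -0.152 to -0.097 with 1 library left out, against -0.120.

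Of the genes named above, 58 with a call were followed through 15 alternatives. All 58 kept their direction in each, and 24 kept the call without any 1 library (*roX1*, *Gr8a*, *lncRNA:CR40469*, *Crg-1*, *Sdic2*, *CG33253*, *Cyp4d1* and *CG8664* on X). The call was lost for 32 without wildtype replicate 3 or 4, for 18 without wildtype replicate 1, for 21 to 28 without 1 *roX1* mutant replicate, for 14 with the replicate number as a block, for 31 with the 7 libraries alone, for 12 with replicates 3/4 only and for 4 with TMM over major autosome genes (*Claspin*, *GluProRS*, *PCNA* and *wbl*). All 58 kept it with DESeq2 and with the block of library sets. Some called genes that were chosen after their values were seen are outside the 58, and of these *Gr98a* lost its call with that block. The sign of genes near 0 turned. *msl-1* was at 0.039 with the replicate block, 0.090 with replicates 3/4 only and -0.12 to 0.11 with 1 library left out, *mle* at -0.16 to 0.0050 and *mof* at -0.043 to 0.089.

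The comparison had 1 wildtype library in the 1/2 set, so its fold changes there rest on that library. Strain background and *roX1* genotype cannot be told apart, low counts limit the receptor, Y and lncRNA genes, and all fold changes are relative to the total.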

Other observations

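Some genes whose products act in the endoplasmic reticulum rose, and those named here were picked after their values were seen. *PH4alphaMP*, which encodes a prolyl-4-hydroxylase subunit, stood at 2.56, 1.75 and 1.94 CPM in wildtype replicates 1, 3 and 4 and at 21.8, 27.0, 15.7 and 8.32 CPM in the *roX1* mutant, a log2 fold change of 3.13 ± 0.35 (SE, edgeR adjusted p = 0.0012). *PH4alphaSG1* rose by 1.06 ± 0.22 (adjusted p = 0.0503 with the replicate number as a block) and *PH4alphaEFB* by 0.69 ± 0.091. These genes lie beside *CG9698* within 50.9 kb of arm 3R (30466050-30516980 of BDGP6). The stretch was drawn around genes already seen to rise. Of the 12 genes tested there 5 rose and none fell, where 0.752% of all genes rose, and with the library set as a block 6 rose and 1, the protease gene *Jon99Fii*, fell. Their neighbours *PH4alphaSG2* (0.41, adjusted p = 0.22) and *PH4alphaNE1* (0.32, adjusted p = 0.84) did not pass the test. The disulfide isomerase gene *CaBP1* rose by 0.93 ± 0.19 and *wbl*, a chaperone of the same compartment, by 0.84 ± 0.17 (adjusted p = 0.059 with that block).

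Beside the replication list, the checkpoint gene *Claspin* rose from 6.36 to 6.80 CPM to 9.96 to 20.3 CPM (1.10 ± 0.23). The X-linked kinase gene *Cdc7*, which triggers origin firing, moved the other way, from 54.1, 40.8 and 38.4 CPM to 29.8, 28.6, 24.7 and 22.8 CPM (-0.75 ± 0.16). *Cdc7* was also lower in the *roX1 roX2* than in the *roX2* mutant, by 0.97 (adjusted p = 0.0092). The X neighbours *eas*, an ethanolamine kinase gene, and *kat80*, a katanin subunit gene, fell by 0.61 ± 0.11 and 0.55 ± 0.11 in the *roX1* mutant (adjusted p = 0.052 for *kat80* with the replicate number as a block). Both fell by 1.05 between the *roX2* and *roX1 roX2* mutants (adjusted p = 0.00102 and 0.00155), where the median of all X genes was -0.57.

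Among 139 pseudogenes tested (315 annotated) 1 rose and 2 fell over all libraries, and with the library set as a block 1 rose and 20 fell, against 4.18% and 3.67% of all genes. Reads of pseudogenes are shared with their parent genes, and these counts are uncertain.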
